A study of Mus musculus with 6 samples.

Results

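Mitochondrial ribosomal proteins were followed through their genes, which carry the symbols Mrpl (large subunit) and Mrps (small subunit) followed by a number and, in some cases, a letter. Among the 46959 gene rows deposited, 77 matched this pattern, 48 for the large and 29 for the small subunit. All 77 passed the filter on low values, a CPM (reads of a gene scaled to the same total in every library) of 1 or more in 3 or more libraries, as did 12955 rows in all. The genes lie on 17 chromosomes.

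RNA came from haematopoietic stem cells (HSCs) of mouse bone marrow, sorted as lineage- Sca-1+ c-kit+ CD150+ CD48- cells with about 2000 cells of 2 pooled mice in each library. The 3 control libraries came from littermates whose genotype the labels give as control, with no allele named. The 3 MaeaCsf1r-Cre libraries came from mice with loxP-flanked Maea alleles and the Csf1r-iCre transgene on a C57BL/6 background, at 8 weeks of age like the controls by the description of the series, while the methods of the study give a wider span of young adult ages. Csf1r drives Cre classically in macrophages and their precursors, and here served to delete Maea in HSCs and progenitors as well, so that the deletion was not limited to HSCs. Maea encodes a subunit of a ubiquitin ligase.

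The mitochondrial ribosome translates the few proteins that mitochondrial DNA encodes, all of them subunits of the respiratory chain and ATP synthase. Its ribosomal RNAs are transcribed inside the organelle, whereas every one of its proteins is encoded in the nucleus, made in the cytosol and imported. Its proteins comprise relatives of bacterial ribosomal proteins and proteins found only in mitochondria, and quiescent HSCs are known for a low reliance on respiration.

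Maea was listed at 108, 116 and 123 CPM in control and 76.9, 88.6 and 101 CPM in MaeaCsf1r-Cre replicates 1, 2 and 3, lower in every MaeaCsf1r-Cre library, and these values do not separate the deleted exon from the rest of the gene. The reads behind the scaling numbered 32968000 to 39614000 in control libraries and 44159000 to 60937000 in MaeaCsf1r-Cre libraries, with the most in MaeaCsf1r-Cre replicate 1. All 9 HSC markers were detected, with a summed level of 983 to 1542 CPM in control and 669 to 1230 CPM in MaeaCsf1r-Cre libraries. The summed level of 9 macrophage markers was 21.4 to 73.2 CPM in control and 4.08 to 49.4 CPM in MaeaCsf1r-Cre libraries. None of these 9 was at 0 in every library, but C1qa and Adgre1 were at 0 in MaeaCsf1r-Cre replicates 1 and 2, C1qb and Vcam1 in MaeaCsf1r-Cre replicate 2, and Adgre1 also in control replicate 2. In bulk RNA of this kind fewer cells of a type and less RNA per cell cannot be told apart.

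In CPM, which does not account for transcript length, most of the mitochondrial ribosomal protein genes lay close together. Their mean level over the 6 libraries had a median of 47.4 CPM, with the middle 50% of genes between 37.9 and 59.8 CPM and Mrpl18, a central protuberance protein, at the top with 109.98 CPM. Large and small subunit genes had nearly the same median, 46.9 and 48.2 CPM, and the same held per kilobase of transcript, 44.2 and 45.6 CPM per kb. Per kilobase the highest large subunit gene was Mrpl20, a relative of a bacterial protein that joins early in assembly, at 152 CPM per kb, and the highest small subunit gene was Mrps21 at 91.4 CPM per kb. The lowest small subunit gene on this scale was Mrps25 at 8.20 CPM per kb, with an annotated transcript of 6073 bases. The lowest of all was Mrpl23, at 3.27 CPM per kb. On this scale the genes lay further apart, with a 90th percentile 6.82 times the 10th.

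The level of Mrpl23, an exit tunnel protein, cannot be read from its own row. The gene was listed at 2.91, 1.96 and 1.85 CPM in control and 2.69, 1.53 and 2.65 CPM in MaeaCsf1r-Cre replicates 1, 2 and 3, whereas the gene with the next lowest level, Mrpl53, had a mean of 12.4 CPM. Its processed pseudogene Mrpl23-ps1, a copy of the spliced mRNA on chromosome 2, was listed at 57.7, 45.5 and 50.9 CPM in control and 66.1, 52.2 and 61.9 CPM in MaeaCsf1r-Cre libraries. Of the 2 rows together, the share in the row of the real gene was 2.84 to 4.80% in the 6 libraries. The annotated transcripts of gene and copy share 540 bases in 1 block with 0 differing bases, and the reads were 150 bases long. The stretch below shows 60 of those bases, with the last base of exon 2 and the first base of exon 3 of Mrpl23 in capitals. In GRCm38 the bases lie at chr7:142535098-142535127 and chr7:142536070-142536099 on the plus strand in Mrpl23, within its coding sequence and on both sides of an intron. In Mrpl23-ps1 they are 1 run at chr2:74591723-74591782 on the minus strand.
Mrpl23 and Mrpl23-ps1: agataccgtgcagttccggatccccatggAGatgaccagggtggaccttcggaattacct
A read of these letters has no feature that tells the genes apart, and the row of the pseudogene may hold reads of Mrpl23. The difference between groups was 0.016 on the log2 scale for Mrpl23 (standard error 0.25) and 0.22 for Mrpl23-ps1 (standard error 0.15), neither of which passed the test.

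**Figure D1:**
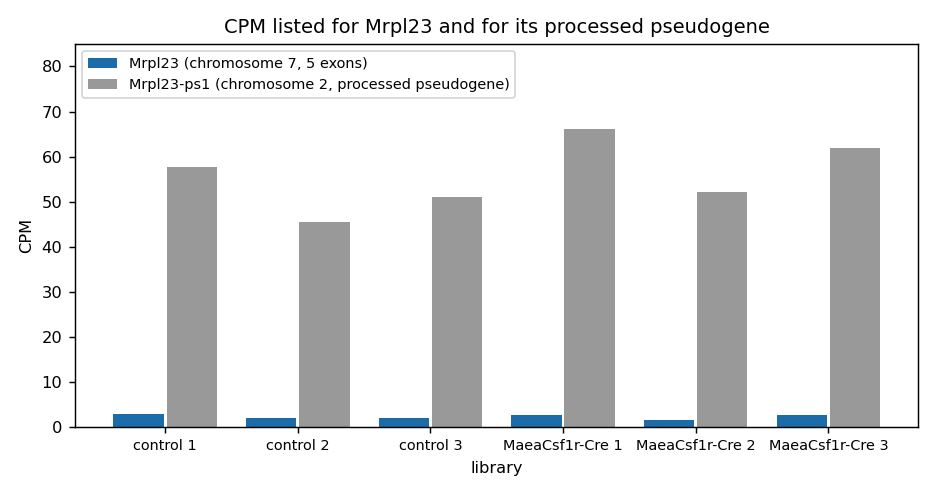
CPM (vertical axis) listed for Mrpl23 and for its processed pseudogene Mrpl23-ps1 in each of the 6 libraries (horizontal axis, 1 bar a gene and library). The pseudogene stands at 45.5 to 66.1 CPM and the gene at 1.53 to 2.91 CPM, so that most of the CPM of both rows is listed under the copy.

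Other genes of the mitochondrial ribosome also share sequence. Cut into pieces of 150 bases, the coding transcripts of 26 of the 77 genes had at least 1 piece in a transcript of another gene on either strand, and those of 51 had 0 such pieces. In Mrps25 the share was 70.1%, mostly with the overlapping gene Nr2c2. All pieces of Mrpl53 also lie in a transcript annotated under another name, Gm42688. Mrpl48 has a copy, Mrpl48-ps, with 98.1% identity over 636 bases, listed at 8.29, 8.78 and 8.82 CPM in control and 14.5, 7.72 and 10.4 CPM in MaeaCsf1r-Cre libraries beside 26.3, 28.9 and 30.2 and 29.0, 28.6 and 31.9 CPM for the gene. Mrps36-ps1 and Mrps36-ps2 have 99.3% and 99.0% identity to Mrps36 and were listed at up to 4.14 and 5.81 CPM. For Mrps36 itself the values were 40.4, 23.8 and 28.3 CPM in control and 38.9, 24.98 and 30.4 CPM in MaeaCsf1r-Cre replicates 1, 2 and 3.

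The main comparison asked whether deletion of Maea went with a different level of these genes in HSCs. With limma's moderated test on log2(CPM + 1) and Benjamini-Hochberg adjustment over the 12955 genes, 0 of the 77 genes had an adjusted p under 0.05, and the smallest adjusted p was 0.967. The background was 0.00772%, that is 1 gene of 12955. At an unadjusted p under 0.05 the count was also 0 of 77, against 3.99% of all genes tested. The standard error of the log2 fold change had a median of 0.17, and the 95% interval reached a median of 0.40 to either side of the estimate. For a gene with an interval of that width, a smaller difference could not reach an unadjusted p of 0.05 in this fit. An adjusted p under 0.05 over the 12955 genes asks for a larger difference still. For comparison, counting error alone had a median of 0.038 on the log2 scale in the library with the fewest reads for each gene.

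Although no gene passed the test, the estimates lay mostly on one side. Of the 77 genes 66 had a positive log2 fold change (MaeaCsf1r-Cre minus control), 41 of 48 in the large and 25 of 29 in the small subunit, against 39.1% of all genes tested. After rescaling by median ratios 74 of the 77 were positive. The median log2 fold change was 0.10 over the 77 genes, 0.12 in the large and 0.059 in the small subunit, and -0.058 over all genes tested. Single genes ranged from -0.07 for Mrps10 to 0.43 for Mrpl52. These values were small beside the spread of the libraries. In 74 of the 77 genes the range over the 3 control libraries exceeded the difference between the groups, and it had a median of 0.34 on the log2 scale, with 0.47 over the MaeaCsf1r-Cre libraries.

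**Figure D2:**
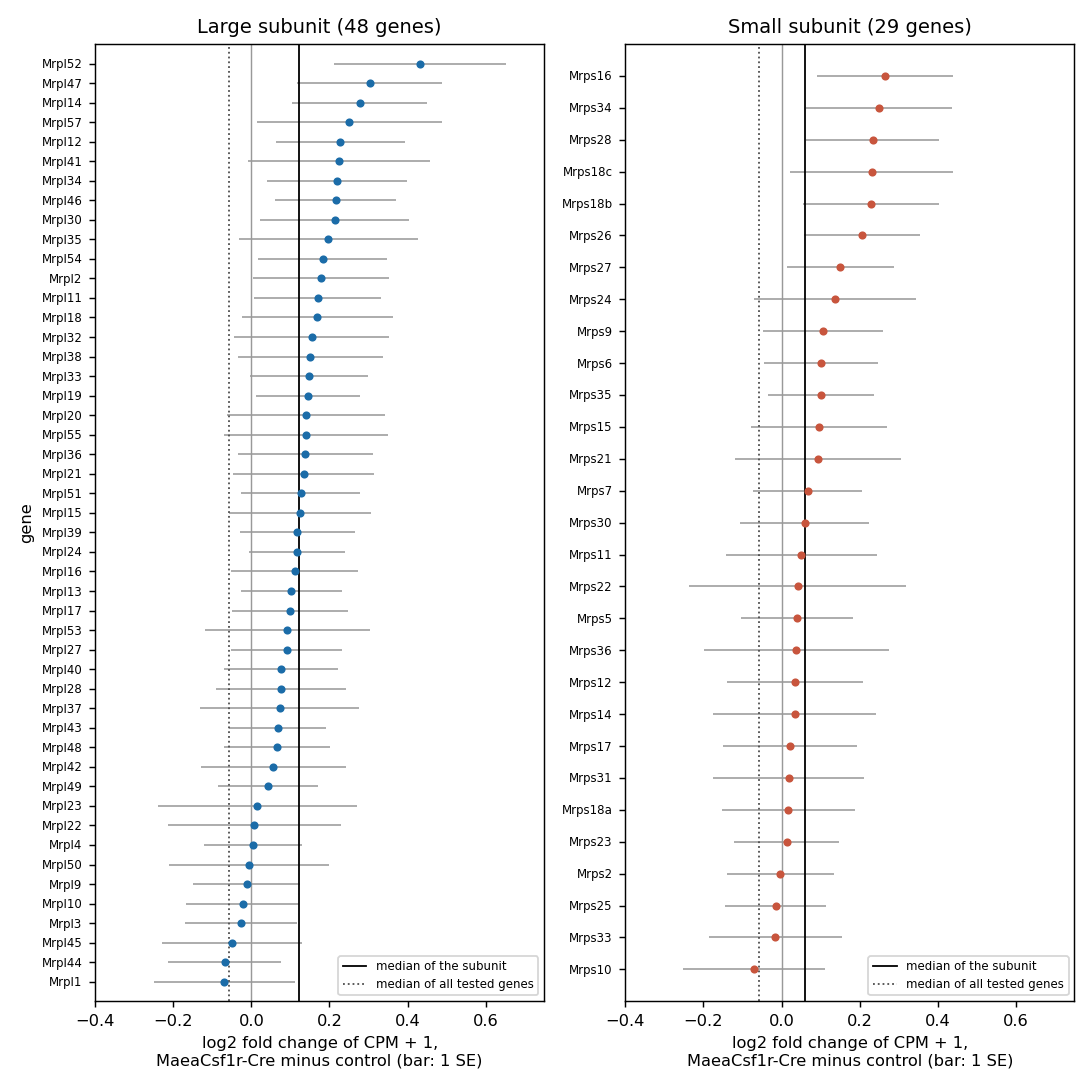
Log2 fold change of CPM + 1 (horizontal axis, MaeaCsf1r-Cre minus control, bars of 1 standard error) for each of the 48 large and 29 small subunit genes (vertical axis), ordered by value. The points run from -0.070 to 0.43, 66 of 77 lie above 0, and the subunit medians (solid lines) of 0.12 and 0.059 lie above the median of all tested genes (dotted line) at -0.058.

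The genes moved together from library to library, and the libraries of both groups overlapped. Control replicate 1 was the highest control library in 61 of the 77 genes and control replicate 2 the lowest in 57. MaeaCsf1r-Cre replicate 1 was the highest MaeaCsf1r-Cre library in 71 genes and the highest of all 6 in 65, and replicate 2 was the lowest of its group in 68. In all 77 genes replicate 1 exceeded replicate 2 of the MaeaCsf1r-Cre group. Summed over the 77 genes the level was 4142, 3319 and 3657 CPM in control and 4675, 3395 and 3956 CPM in MaeaCsf1r-Cre replicates 1, 2 and 3, with means of 3706 ± 414 and 4009 ± 641 CPM (SD, n = 3 each). MaeaCsf1r-Cre replicate 2 thus lay below control replicates 1 and 3.

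Other measures moved with this order. The HSC markers summed to 983, 1542 and 1323 CPM in control and 669, 943 and 1230 CPM in MaeaCsf1r-Cre replicates 1, 2 and 3, so that the library with the highest sum of mitochondrial ribosomal protein genes had the lowest sum of HSC markers and the library with the lowest sum had the highest. The 5 erythroid genes, of which Car1 gave most, summed to 3770, 1359 and 781 CPM in control and 4014, 1573 and 1776 CPM in MaeaCsf1r-Cre libraries, highest in replicate 1 of each group. The rows deposited summed to 78.8, 76.9 and 78.2% of the scaled total in control and 80.2, 75.2 and 79.4% in MaeaCsf1r-Cre libraries. The part of either list, or of this listed share, in the levels of the mitochondrial ribosomal protein genes was not tested. The sign of the group median changed when MaeaCsf1r-Cre replicate 1, which stood highest, was left out. Without it the median log2 fold change was -0.0020 over the 77 genes, 0.0078 in the large and -0.053 in the small subunit, and 38 genes were positive. In that fit the median over all genes tested was -0.051, and control replicate 1, mostly the highest control library, was kept.

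**Figure D3:**
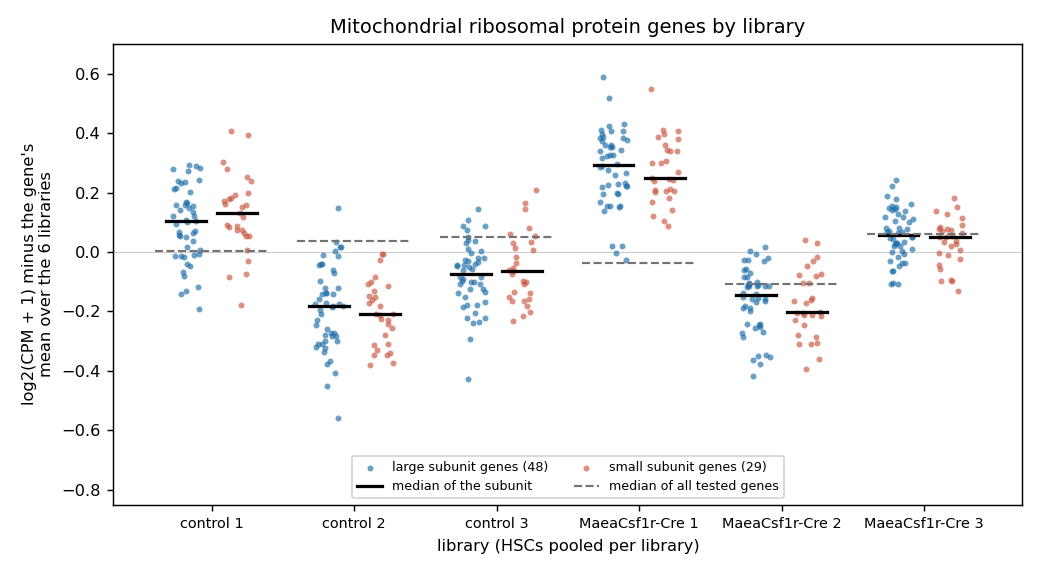
Deviation of log2(CPM + 1) from each gene's mean over the 6 libraries (vertical axis) for the 48 large and 29 small subunit genes in each library (horizontal axis), 1 point a gene, with subunit medians (black) and the median of all tested genes (dashed). Control replicate 1 and MaeaCsf1r-Cre replicate 1 stand high, with large subunit medians of 0.10 and 0.29, and replicate 2 of both groups stands low, at -0.18 and -0.15.

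Libraries that share a replicate number in the labels deviated together across all genes, so differences were also taken within numbers. The median difference of the 77 genes was 0.15, 0.038 and 0.12 in pairs 1, 2 and 3, with 72, 47 and 63 genes higher in the MaeaCsf1r-Cre library. Over all genes tested the median difference was -0.026, -0.14 and 0.010. In each pair the genes of the mitochondrial ribosome therefore stood above the median of all genes. In all 3 pairs 38 of the 77 genes were higher in the MaeaCsf1r-Cre library, 29 of 48 in the large and 9 of 29 in the small subunit, against 13.2% of all genes tested. Another 30 were higher in 2 pairs and 8 in 1 pair, and Mrps10 in none. Without replicate 1 of both groups the median was 0.080 and 57 genes were positive.

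With the replicate number as a block in limma, 0 of the 77 genes had an adjusted p under 0.05 (background 0.00772%), and the smallest adjusted p was 0.218. At an unadjusted p under 0.05 the count was 6, all higher in MaeaCsf1r-Cre, against 3.11% of all genes tested that were called higher. In either direction 1805 of the 12955 genes tested had such a p with the block, 403 of them higher and 1402 lower. The 6 were Mrpl52, Mrpl14 and Mrpl57 of the large and Mrps16, Mrps34 and Mrps28 of the small subunit.

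Mrpl52 encodes a mitochondria-specific protein near the central protuberance, the crown of the large subunit, and lies at chr14:54426909-54429756 on the plus strand. It was at 51.4, 35.2 and 33.9 CPM in control and 69.7, 45.8 and 48.2 CPM in MaeaCsf1r-Cre replicates 1, 2 and 3. Control replicate 1 stood above MaeaCsf1r-Cre replicates 2 and 3, so the groups overlapped, while each MaeaCsf1r-Cre library was above the control library of its number. The log2 fold change was 0.43 (standard error 0.22, 95% interval -0.076 to 0.94), with an unadjusted p of 0.0856 from limma and 0.00337 with the block.

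Mrpl14, a relative of a bacterial protein at the face that meets the small subunit, was at 34.1, 24.6 and 31.4 CPM in control and 39.7, 31.2 and 38.5 CPM in MaeaCsf1r-Cre libraries. Its log2 fold change was 0.28 (standard error 0.17). Mrpl57, a mitochondria-specific protein, was at 70.0, 38.4 and 52.9 CPM in control and 75.5, 50.7 and 63.4 CPM in MaeaCsf1r-Cre libraries, with differences of 0.11, 0.39 and 0.25 in pairs 1, 2 and 3. For both genes the highest control library exceeded the lowest MaeaCsf1r-Cre library.

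In the small subunit Mrps16, a relative of bacterial S16, was at 45.1, 33.6 and 38.9 CPM in control and 56.7, 40.4 and 45.2 CPM in MaeaCsf1r-Cre libraries, a log2 fold change of 0.27 (standard error 0.17). Mrps34, a mitochondria-specific protein, was at 53.9, 38.3 and 40.6 CPM in control and 63.8, 45.4 and 49.1 CPM in MaeaCsf1r-Cre libraries. Of the pieces of its transcript 46.2% are shared with an annotated transcript of Mapk8ip3, which was at 15.7, 23.1 and 11.2 CPM in control and 10.9, 17.1 and 8.53 CPM in MaeaCsf1r-Cre libraries. Mrps28, which carries an RNA-binding domain related to bacterial S1, was at 55.1, 39.8 and 45.1 CPM in control and 64.0, 47.4 and 53.3 CPM in MaeaCsf1r-Cre libraries, with nearly equal differences of 0.21, 0.25 and 0.24 in the 3 pairs. In each of these 3 genes the order of the libraries was the same in both groups, with replicate 1 highest and replicate 2 lowest.

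**Figure D4:**
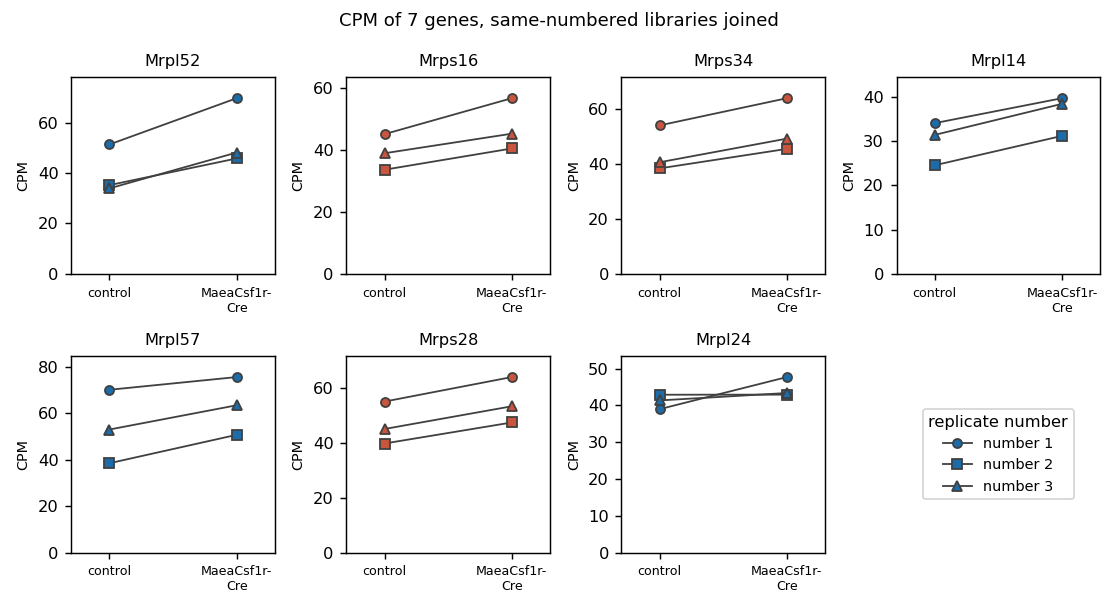
CPM (vertical axis, from 0) in control and MaeaCsf1r-Cre libraries (horizontal axis) for the 6 genes with an unadjusted p under 0.05 with the block, and for Mrpl24, with lines joining libraries of the same replicate number. In the 6 genes each line goes up and the group ranges overlap, as for Mrpl52 at 33.9 to 51.4 CPM in control and 45.8 to 69.7 CPM in MaeaCsf1r-Cre, whereas in Mrpl24 the 3 MaeaCsf1r-Cre values lie just above the 3 control values.

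Without overlap between the groups 1 gene of 77 was higher in MaeaCsf1r-Cre, against 2.49% of all genes tested, and 0 were lower, against 6.06%. The gene was Mrpl24, an exit tunnel protein at chr3:87919506-87923672 on the plus strand, with 39.0, 42.9 and 41.4 CPM in control and 47.7, 42.9 and 43.4 CPM in MaeaCsf1r-Cre replicates 1, 2 and 3. The lowest MaeaCsf1r-Cre and the highest control library, both of replicate 2, differed by 0.00072 on the log2 scale, and the log2 fold change was 0.12 (standard error 0.12). Of the pieces of its transcripts 17.6% are shared with Rrnad1, which was at 12.0, 11.7 and 10.7 CPM in control and 9.74, 10.3 and 12.6 CPM in MaeaCsf1r-Cre libraries. With 3 libraries a group, an exact two-sided permutation test of 1 gene cannot go below 0.10.

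Functional sites of the large subunit were described by their genes. Over all genes tested the median log2 fold change was -0.058, or -0.051 without MaeaCsf1r-Cre replicate 1. Control replicate 1 was kept in that fit. The stalk recruits translation factors, and 4 of its 5 genes had a positive log2 fold change, with a median of 0.17, or 0.025 without MaeaCsf1r-Cre replicate 1. Mrpl12, which forms the flexible arm of the stalk, was at 69.9, 55.4 and 61.5 CPM in control and 89.4, 66.2 and 65.0 CPM in MaeaCsf1r-Cre libraries. Mrpl11, at the stalk base, was at 29.6, 31.3 and 29.9 CPM in control and 42.0, 29.6 and 32.0 CPM in MaeaCsf1r-Cre libraries, so that MaeaCsf1r-Cre replicate 1 alone stood apart. Mrpl10, which anchors Mrpl12, was at 57.6, 56.6 and 62.0 CPM in control and 59.1, 49.0 and 66.6 CPM in MaeaCsf1r-Cre libraries, with a log2 fold change of -0.022 (standard error 0.14).

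Around the exit of the peptide tunnel 5 of 6 genes were positive, with a median of 0.058. Without MaeaCsf1r-Cre replicate 1, and with control replicate 1 kept, the median was -0.026. Mrpl47 was at 23.0, 16.8 and 17.9 CPM in control and 26.4, 20.04 and 25.4 CPM in MaeaCsf1r-Cre libraries, a log2 fold change of 0.30 (standard error 0.19), higher in each pair. Mrpl45, which holds the ribosome to the inner membrane, was at 42.2, 38.1 and 35.2 CPM in control and 44.2, 29.1 and 39.5 CPM in MaeaCsf1r-Cre libraries, with a log2 fold change of -0.049. At the central protuberance all 8 genes were positive, with a median of 0.15, or 0.021 without MaeaCsf1r-Cre replicate 1. Mrpl27, whose bacterial relative reaches the site of peptide bond formation, was at 35.6, 33.8 and 39.4 CPM in control and 41.7, 33.9 and 40.6 CPM in MaeaCsf1r-Cre libraries.

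Genes of the large subunit with a bacterial relative had a median log2 fold change of 0.14 (26 of 30 positive) and those found only in mitochondria of 0.084 (15 of 18). In the small subunit these medians were 0.080 (14 of 16) and 0.041 (7 of 9). Without MaeaCsf1r-Cre replicate 1, and with control replicate 1 kept, the 4 medians were 0.011, 0.0038, -0.046 and -0.027. Both small subunit classes thus changed sign in that fit, where the median of all genes tested was -0.051. Within same-numbered pairs the 4 median differences, in the same order, were 0.056, 0.018, -0.019 and 0.068 in pair 2. In pair 3 they were 0.12, 0.16, 0.11 and 0.12. Adjusted p values from limma were under 0.05 for 0 genes in each of the 4 classes, in either direction. The lowest estimates of the large subunit were those of Mrpl1, Mrpl44, Mrpl45 and Mrpl3. Mrpl1, of the stalk through which spent tRNA leaves, was at 39.7, 35.6 and 33.1 CPM in control and 42.3, 27.4 and 34.8 CPM in MaeaCsf1r-Cre libraries. Mrpl44, which resembles a ribonuclease, was at 41.3, 52.4 and 52.4 CPM in control and 48.0, 42.5 and 48.2 CPM in MaeaCsf1r-Cre libraries, with control replicate 1 as the lowest control library. Mrpl3 was at 54.8, 52.8 and 59.5 CPM in control and 64.5, 49.3 and 51.1 CPM in MaeaCsf1r-Cre libraries.

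In the small subunit Mrps12, part of the decoding centre, was at 33.4, 29.0 and 39.6 CPM in control and 39.7, 29.3 and 35.5 CPM in MaeaCsf1r-Cre libraries, with overlapping groups. Mrps10, at 56.1, 39.6 and 47.1 CPM in control and 54.4, 39.6 and 41.9 CPM in MaeaCsf1r-Cre libraries, was the gene lower in all 3 pairs, with differences of -0.043, -0.0025 and -0.17 on the log2 scale. Mrps2, Mrps5 and Mrps7, relatives of core bacterial proteins, had log2 fold changes of -0.0034, 0.039 and 0.067 (standard errors 0.14, 0.14 and 0.14). Mrps33 and Mrps25, found only in mitochondria, had log2 fold changes of -0.015 and -0.015, and Mrps26, also found only there, of 0.21 (standard error 0.15).

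The 3 paralogues related to bacterial S18 are built into different places of the ribosome. Mrps18c, the closest relative, was at 44.3, 29.6 and 34.4 CPM in control and 51.7, 33.5 and 42.6 CPM in MaeaCsf1r-Cre libraries. Mrps18b, also in the small subunit, was at 57.0, 42.0 and 54.2 and 70.7, 50.9 and 58.5 CPM. For Mrps18a, which despite its name sits in the large subunit, the values were 53.5, 43.0 and 46.6 and 59.1, 40.6 and 46.3 CPM. Log2 fold changes were 0.23 and 0.23 for Mrps18c and Mrps18b and 0.018 for Mrps18a (standard errors 0.21, 0.17 and 0.17), and the difference among them was not tested.

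Mrps30 also belongs to the large subunit by structure, at 76.0, 60.2 and 65.5 CPM in control and 82.6, 57.5 and 71.5 CPM in MaeaCsf1r-Cre libraries, and Mrps36 is a subunit of the oxoglutarate dehydrogenase complex. Mrpl58, a peptide release factor built into the large subunit, has no row of that name, and under its older symbol Ict1 it was at 20.9, 19.6 and 20.2 CPM in control and 24.99, 20.2 and 21.9 CPM in MaeaCsf1r-Cre libraries.

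Large and small subunit genes kept to nearly the same proportion. The sum of large over the sum of small subunit genes was 1.72, 1.78 and 1.72 in control and 1.78, 1.78 and 1.78 in MaeaCsf1r-Cre replicates 1, 2 and 3, with means of 1.74 ± 0.033 and 1.78 ± 0.0030 (SD, n = 3 each). Control replicate 2 lay among the MaeaCsf1r-Cre libraries. The large subunit median log2 fold change exceeded that of the small subunit by 0.062. Corrected for transcript length it exceeded it by 0.025, and with Mrps30 and Mrps18a counted as large and Mrps36 left out by 0.038. Another measure is the large minus small difference in the median deviation from each gene's mean, taken per library. It was -0.027, 0.028 and -0.0096 in control and 0.044, 0.055 and 0.0088 in MaeaCsf1r-Cre replicates 1, 2 and 3, so that the groups overlapped. Its SD within a group was 0.026 over libraries, which is not the spread of the 0.062.

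The estimates also moved with transcript length. The genes have a median transcript length of 1047 bases, against 2012 bases for the tested genes of known length, and shorter transcripts had higher log2 fold changes across all tested genes (Spearman's rho = -0.25, 12473 genes that share the same 6 libraries). Tested genes no longer than 1047 bases had a median log2 fold change of 0.023 and longer ones of -0.081. After correction by a loess curve over length the median of the 77 genes was 0.13, with 0.015 over all tested genes, and 73 of 77 were positive.

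Genes that serve the mitochondrial ribosome or mitochondrial DNA had medians on both sides of 0. The 6 of its proteins with other symbols, such as Dap3, had a median log2 fold change of 0.13 with 6 of 6 positive. For 29 assembly and rRNA processing factors it was 0.077, with 21 positive. Among these Mpv17l2, an assembly factor, was at 38.8, 25.7 and 28.7 CPM in control and 49.7, 32.7 and 37.4 CPM in MaeaCsf1r-Cre libraries, and Ybey, an rRNA endonuclease, at 16.1, 21.3 and 17.0 and 13.8, 14.1 and 17.6 CPM. The 17 aminoacyl-tRNA synthetases had a median of 0.080 (13 positive) and the 17 translation factors of 0.048 (10 positive). For 12 genes of mitochondrial DNA replication and transcription the median was 0.021 (8 positive). Within this list the DNA packaging factor Tfam was at 72.7, 64.7 and 73.8 CPM in control and 69.5, 59.5 and 60.3 CPM in MaeaCsf1r-Cre libraries. Top1mt went the other way, at 10.4, 8.91 and 10.2 CPM in control and 13.4, 12.1 and 11.4 CPM in MaeaCsf1r-Cre libraries. The 11 tested regulators of mitochondrial biogenesis had a median of -0.075 (5 positive). Without MaeaCsf1r-Cre replicate 1, and with control replicate 1 kept, the medians of these 6 lists were all negative. In the same order they were -0.023, -0.0034, -0.025, -0.038, -0.056 and -0.033. The median over all genes tested was also negative in that setting, at -0.051. Within pair 2 the median differences were -0.014, -0.077, -0.083, -0.14, -0.084 and 0.027, against -0.14 over all genes tested. Within pair 3 they were 0.20, 0.11, 0.13, 0.12, 0.15 and -0.055, against 0.0095. No gene of these lists had an adjusted p under 0.05 from limma, with or without the block.

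Proteins of the cytoplasmic ribosome had a median log2 fold change of 0.11 (67 of 80 positive) and nuclear subunits of oxidative phosphorylation of 0.13 (70 of 76 positive), close to the 0.10 of the mitochondrial ribosome. Without MaeaCsf1r-Cre replicate 1, and with control replicate 1 kept, these medians were 0.034, 0.010 and -0.0020, against -0.051 over all genes tested. Positive medians were thus shared by these lists, and differences between the lists were not tested. The products that the mitochondrial ribosome makes could not be followed, since all 37 mitochondrially encoded genes, 13 protein genes and 2 rRNAs among them, were listed at 0 in every library.

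**Figure D5:**
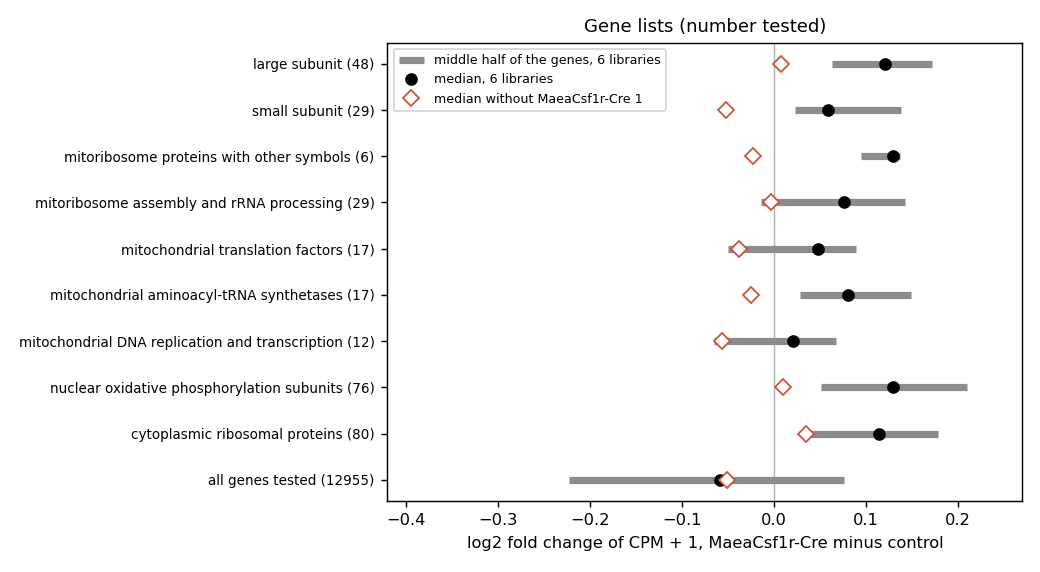
Log2 fold change of CPM + 1 (horizontal axis, MaeaCsf1r-Cre minus control) for gene lists (vertical axis, number tested in brackets), with the median over 6 libraries (black), the middle 50% of genes (grey bar) and the median without MaeaCsf1r-Cre replicate 1 (open diamond). Both subunits, at 0.12 and 0.059, stand near oxidative phosphorylation at 0.13 and the cytoplasmic ribosome at 0.11, and all of these medians are lower without that library. The median of all tested genes is -0.058, and -0.051 without that library. Control replicate 1 was kept in the medians without that library.

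Since these genes moved together across libraries, their promoters were searched for shared letters. RefSeq promoters of GRCm38, from 250 bases before to 50 bases after a start, were at hand for 68 of the 77 genes (74 promoters) and numbered 32851 in all. On either strand GCGCANGCG, the letters of nuclear respiratory factor 1, stood in 21.6% of the promoters of these genes, in 6.25% of all promoters and in 13.45% of promoters of tested genes. The ETS family letters CCGGAAG stood in 33.8%, 8.86% and 17.9%, and the YY1 letters AAGATGGC in 16.2%, 2.75% and 4.51%. At least 1 of these 3 stood in 58.1% of promoters of these genes, 16.0% of all and 31.3% of those of tested genes. The bases G and C made up a median of 58.5% of the former, 52.7% of all promoters and 60.7% of those of tested genes. CCAAT stood in 40.5%, 37.4% and 37.8%, and TATAAA in 6.8%, 13.6% and 6.69%, so that its share in these genes was near that of tested genes. Genes with the nuclear respiratory factor 1 letters had a median log2 fold change of 0.11 (16 genes) and those without of 0.076, whereas for the YY1 letters the order was the other way, 0.070 (12 genes) and 0.094. A match of letters is a description and not a binding site.

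Many of the genes start back to back with another gene. Of the 77 genes 17 (22.1%) have a protein-coding gene that starts on the other strand within 300 bases upstream, against 5.6% of all protein-coding genes and 9.0% of those tested. Of the 16 partners tested 10 had a positive log2 fold change, and their median was 0.080 where that of the adjoining genes was 0.15. Mrps12 starts 172 bases from Sars2, which encodes the mitochondrial seryl-tRNA synthetase and was at 22.4, 18.7 and 22.6 CPM in control and 24.2, 22.0 and 24.7 CPM in MaeaCsf1r-Cre libraries. Mrpl57 starts 49 bases from Ska3, a gene of the mitotic spindle, at 25.9, 20.2 and 25.1 CPM in control and 31.0, 24.9 and 27.1 CPM in MaeaCsf1r-Cre libraries. Mrpl49 starts 59 bases from Fau, a gene of the cytoplasmic ribosome, at 18.0, 12.2 and 11.5 CPM in control and 18.8, 11.7 and 16.5 CPM in MaeaCsf1r-Cre libraries. Mrpl46 of the large and Mrps11 of the small subunit overlap at their starts on chromosome 7, and were at 36.3, 34.0 and 34.0 and 39.0, 25.7 and 29.2 CPM in control and 48.2, 34.7 and 39.7 and 37.5, 28.0 and 31.1 CPM in MaeaCsf1r-Cre libraries. Mrps5 (log2 fold change 0.039) and its partner Zfp661 (-0.63) differed in their estimates, and neither passed the test, with Zfp661 at 8.55, 7.60 and 7.83 CPM in control and 5.17, 4.23 and 5.10 CPM in MaeaCsf1r-Cre libraries.

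The sequences below show such starts in GRCm38, each free of annotated exons and read 5′ to 3′ on the strand of the named gene. They stand for the shared start of Mrps12 and Sars2 (chr7:28741822-28741991, minus strand), that of Mrpl57 and Ska3 (chr14:57826186-57826233, plus strand), and the upstream sequence of Mrpl52, the gene with the highest estimate (chr14:54426659-54426908, plus strand). Capitals mark CCAAT or its complement and the ETS family letters or their complement.
Mrps12 and Sars2: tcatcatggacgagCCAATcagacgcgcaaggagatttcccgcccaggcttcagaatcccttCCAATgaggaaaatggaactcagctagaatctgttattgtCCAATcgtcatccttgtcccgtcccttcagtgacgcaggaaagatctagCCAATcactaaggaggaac
Mrpl57 and Ska3: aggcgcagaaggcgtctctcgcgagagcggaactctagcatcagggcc
Mrpl52: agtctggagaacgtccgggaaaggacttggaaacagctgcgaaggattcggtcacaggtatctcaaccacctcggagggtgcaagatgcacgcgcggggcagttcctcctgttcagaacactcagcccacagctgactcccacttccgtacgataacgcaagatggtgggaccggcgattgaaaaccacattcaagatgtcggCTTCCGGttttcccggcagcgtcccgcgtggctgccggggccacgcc
The start shared by Mrps12 and Sars2 holds 4 CCAAT, all on the strand of Mrps12, that of Mrpl57 and Ska3 none of the letters searched, and the sequence of Mrpl52 1 ETS match in the direction of its complement.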

How the data were processed

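RNA of about 2000 sorted HSCs per library was made into cDNA with SMART-Seq v4 and Nextera XT, which do not mark strand. The authors trimmed single-end reads of 150 bases with Trim Galore, aligned them to mm10 with STAR 2.5.3a, quantified them against Ensembl transcripts (release 83) and used Partek Flow for normalisation. What the authors deposited is 1 CPM value per gene and library, plus an offset of 0.0001 that was subtracted. The number of reads behind the scaling of a library was read from the spacing of its low CPM values. Only 78.5 to 80.8% of low values lay on whole reads (within 0.1 read), so counts were not recovered and no count test was used. A signal of 3 reads was 0.0492 to 0.0910 CPM, for counting error only.

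The filter kept genes at 1 CPM or more in 3 or more libraries. Their log2(CPM + 1) values entered limma 3.58.1 in R 4.3.3 (linear model, mean-variance trend, two-sided). P-values of all 12955 genes were adjusted after Benjamini and Hochberg, and 0.05 was the threshold. Fold changes are on this scale, which understates those of low genes. Same-numbered libraries had correlated deviations from their group means (Pearson's r = 0.627, 0.523 and 0.397 across genes, other pairings -0.459 to -0.0538), so the replicate number was taken to pair libraries and served as a block. The pairing comes from the labels' numbers and this check, and p-values measure the spread between these pools. The procedure was run on simulated counts, drawn independently for each library and with changes far larger than those seen here. Shared shifts of libraries were not simulated, so that run does not bear on small differences in these data.

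The genes and lists were chosen with earlier results of these data known. Genes named were, by rule, the 4 of each subunit with the smallest p in each direction, those highest and lowest per kilobase, and 18 fixed by role. Mrpl18, Mrpl53, Mrpl57 and the genes named with their neighbours or copies were named after their values were seen. Coordinates, transcript lengths (median over coding transcripts) and shared sequence come from GENCODE M21 (GRCm38), later than the authors' annotation, and promoters from RefSeq on GRCm38.p6.

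Alternatives were median ratios, a filter at 10 CPM or none, a pseudocount of 0.1, quantile normalization, the block, each library left out, no trend, loess length correction (span 0.5) and subunits by structure. Leaving out both libraries of a number, and medians relative to all genes, were added after seeing the data. Python 3.11.15 was used for the rest.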

Additional observations from a re-analysis of the deposited data

How the results depend on the processing

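No alternative gave a gene of the mitochondrial ribosome an adjusted p under 0.05 from limma. The unadjusted count under 0.05 was 0 without and 6 with the block, against 517 and 1805 of all 12955 genes tested. The median log2 fold change of the 77 genes was 0.10 in both. It was 0.14 to 0.16 after quantile normalization and median ratios, and median ratios moved the median of all genes from -0.058 to 0.000. Leaving out 1 library gave -0.0020 to 0.21 over the 77 genes, 0.0078 to 0.23 in the large and -0.053 to 0.19 in the small subunit, each lowest without MaeaCsf1r-Cre replicate 1, and 38 to 76 positive genes. Genes without overlap were 3 under median ratios and 3 under quantile normalization, and 1 to 16 without 1 library (16 without control replicate 1, 15 without MaeaCsf1r-Cre replicate 2). The share over all genes tested was not taken in these settings, and fewer libraries make non-overlap easier to reach. Nothing about the 77 genes can therefore be read from these counts. The large subunit exceeded the small by 0.025 with the length correction, also with the replicate block, by 0.025 to 0.060 without 1 library, and by 0.031 to 0.072 without both libraries of a number, lowest without control replicate 2 and without replicate 2 of both groups. Relative to all genes the median was 0.16, and 0.049 to 0.26 without 1 library. The cause of these shifts was not tested.

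Single genes changed sign without passing the test. With the length correction, with or without the block, Mrpl1 stood at 0.055, Mrpl10 at 0.0036, Mrpl3 at 0.069, Mrps2 at 0.082 and Mrps25 at 0.15. After median ratios Mrpl10 was at 0.040, Mrpl3 at 0.035, Mrpl45 at 0.011, Mrps2 at 0.059, Mrps25 at 0.046 and Mrps33 at 0.046. After quantile normalization Mrpl10 was at 0.0094, Mrpl3 at 0.0003, Mrps2 at 0.019, Mrps25 at 0.021 and Mrps33 at 0.026. Ranges without 1 library crossed 0 for 17 named genes, namely Mrpl1 (-0.22 to 0.087), Mrpl10 (-0.12 to 0.10), Mrpl20 (-0.0090 to 0.32), Mrpl23 (-0.078 to 0.20), Mrpl3 (-0.15 to 0.044), Mrpl45 (-0.17 to 0.12), Mrps10 (-0.21 to 0.052), Mrps12 (-0.071 to 0.15), Mrps18a (-0.13 to 0.14), Mrps2 (-0.10 to 0.078), Mrps21 (-0.072 to 0.27), Mrps25 (-0.080 to 0.041), Mrps30 (-0.061 to 0.20), Mrps33 (-0.11 to 0.14), Mrps36 (-0.13 to 0.25), Mrps5 (-0.052 to 0.13) and Mrps7 (-0.040 to 0.16). The replicate block changed no call.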
